A study of Mus musculus with 10 samples.

Results

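The AP-1 transcription factor family was described here through its 8 genes Fos, Fosb, Fosl1, Fosl2, Jun, Junb, Jund and Atf3 in RNA-seq counts of mouse regulatory T cells (Tregs). These 8 genes were selected by name on earlier results of the same libraries, from 55401 gene IDs in the count table, and 24994 IDs could be used in all libraries. Because the choice was made with these values in view, the levels and fold changes of the 8 genes are given as a description with no test. The study compared 5 groups of C57BL/6J Tregs with 2 libraries each, 10 libraries in all. iB-Tregs (C) were Tregs kept for 6 days on glial cells rich in astrocytes with anti-CD3 and anti-CD28 antibodies, IL-2, IL-33, serotonin and the chemokines CCL1 and CCL20. The chemokines were left out for iB-Tregs (B), and the chemokines, IL-33 and serotonin for iB-Tregs (A). Ischemia-Tregs came from the brain 28 days after the onset of ischemic stroke, and SP-Tregs came from the spleen of untreated mice. All cells were selected for RNA by the human CD2 marker that is expressed from the Foxp3 locus. Digestion with collagenase and DNase is described for the brain and not for the spleen, and cultured cells were collected with EDTA. Digestion therefore cannot be told apart from tissue, or from culture, where Ischemia-Tregs are compared. Whether the replicate libraries stem from separate mice or cultures is not stated, so p-values measure only the spread between libraries, which may be technical.

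AP-1 is a dimer of basic leucine zipper (bZIP) proteins. FOS proteins need a JUN partner to bind DNA, whereas JUN proteins can also pair with each other. Many of these genes are immediate early genes, which T cell receptor signals and cell stress switch on through MAP kinases without new protein synthesis. In T cells AP-1 binds composite sites together with NFAT and, as dimers of BATF and JUN proteins, with IRF4, and FOXP3 is known to limit the NFAT and AP-1 programme of activation. JUND and JUNB are commonly less transient than FOS, FOSL1 and FOSL2 lack the strong activation domain of FOS and FOSB, and ATF3 is a stress-induced partner that often acts as a repressor.

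In the deposited table the counts of the SP-Treg and Ischemia-Treg libraries stand below their own gene ID by an offset that grows along the table. They were moved back by 0 to 19 rows in 6 stretches, and the iB-Treg columns were used in place. In windows of 60 rows around each of the 8 genes, log2 counts of the moved columns correlated with those of the iB-Treg columns at r of 0.801 to 0.942 at the offset used, and at no more than 0.430 at any other offset tried. Values of the SP-Treg and Ischemia-Treg groups therefore rest on this realignment. The 6 iB-Treg libraries held 15628261 to 16388161 counts and the 4 tissue libraries 5186728 to 6634583. Of the counts in the stretches used, protein-coding genes outside the mitochondrial genome took 96.7 to 96.9% in iB-Treg libraries and 65.1 to 68.2% in tissue libraries. Mitochondrial ribosomal RNA took 0.128 to 0.178% of them in iB-Treg libraries and 16.1 to 17.1% in tissue libraries. Differences between iB-Treg and tissue libraries cannot be told apart from this difference in library make-up.

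The Treg labels were checked by marker genes. Foxp3, the lineage factor of Tregs, averaged 243 CPM (counts per 1000000 counts) in iB-Tregs (C), 243 CPM in (B), 296 CPM in (A), 819 CPM in Ischemia-Tregs and 715 CPM in SP-Tregs. The summed level of 17 microglia and macrophage markers was 7686 to 8198 CPM in iB-Tregs (C), 8700 to 8735 in (B), 5050 to 5266 in (A), 137 to 167 in Ischemia-Tregs and 58.7 to 68.8 in SP-Tregs. Lyz2 alone averaged 4524 CPM in iB-Tregs (B) and 0.299 CPM in SP-Tregs. Of these 17 markers 1, 1, 0, 1 and 5 had no count in the groups in that order. The 12 astrocyte markers summed to 206 to 210, 243 to 249, 196 to 197, 69.2 to 108 and 57.5 to 68.2 CPM, most of it Glul, and the defining astrocyte marker Gfap stayed at or below a mean of 2.99 CPM in each group. The 2 CD8 T cell markers summed to 63.2 to 83.1 CPM in Ischemia-Tregs and 19.6 to 23.9 CPM in SP-Tregs. The 11 Treg and T cell markers summed to 4619 to 5108 CPM in the iB-Treg groups, 6708 to 7062 CPM in Ischemia-Tregs and 5257 to 5311 CPM in SP-Tregs. Members of this list differed in direction. Ctla4 averaged 626, 631 and 680 CPM in iB-Tregs (C), (B) and (A), 270 in Ischemia-Tregs and 41.2 in SP-Tregs. Il2ra averaged 1091, 1203, 1368, 612 and 788 CPM in that order. Ikzf2 was lower in culture like Foxp3, at 234, 224, 211, 1267 and 962 CPM. The part of RNA from other cells in the AP-1 values was not tested, and in such bulk libraries fewer cells of a type and less RNA per cell cannot be told apart.

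The 150 bases upstream of 4 start sites are shown because Fos, Fosb and Junb had the most similar patterns across libraries and Atf3 had no count in one group. They are RefSeq sequences on GRCm38.p6, written 5′ to 3′ on the strand of the gene, with capitals for matches on either strand to the AP-1 site TGACTCA, to the cyclic AMP response element TGACGTCA and its variants (TGACGCA and the shorter form TGACGT) or to the TATA box written as TATAAA. The windows are chr12:85473740-85473889 on the plus strand for Fos, chr7:19310046-19310195 on the minus strand for Fosb, chr8:84978749-84978898 on the minus strand for Junb and chr1:191183334-191183483 on the minus strand for Atf3, where the RefSeq start lies inside the annotated gene.
Fos: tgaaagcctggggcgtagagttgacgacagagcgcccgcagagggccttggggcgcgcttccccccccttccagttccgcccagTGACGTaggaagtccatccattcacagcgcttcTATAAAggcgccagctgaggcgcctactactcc
Fosb: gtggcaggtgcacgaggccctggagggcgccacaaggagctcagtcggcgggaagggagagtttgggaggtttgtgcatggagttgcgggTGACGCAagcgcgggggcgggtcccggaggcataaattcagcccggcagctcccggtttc
Junb: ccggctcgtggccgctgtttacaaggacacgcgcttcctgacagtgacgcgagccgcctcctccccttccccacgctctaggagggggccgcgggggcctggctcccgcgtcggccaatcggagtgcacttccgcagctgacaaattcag
Atf3: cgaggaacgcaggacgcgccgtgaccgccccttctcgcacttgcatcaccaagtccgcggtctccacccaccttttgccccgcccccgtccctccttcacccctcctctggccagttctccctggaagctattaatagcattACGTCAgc

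Motifs were counted in 300 bases, 250 before and 50 after the start, of the 7 family genes with an entry and of 32851 promoters in all. The AP-1 site TGACTCA was in 0 of the 7 and in 5.20% of all promoters, and the full cyclic AMP response element TGACGTCA in 0 of the 7 and 1.79% of all. The shorter TGACGT, which is contained in TGACGTCA, began at position -66 from the start site in Fos and, on the other strand, at -8 in Atf3, and was in 7.51% of all promoters. The variant TGACGCA began at -60 in Fosb and occurred in 2.12% of all. TATAAA began at -33 in Fos and at the RefSeq start itself in Junb, and was in 13.6% of all. The CArG box, the site of serum response factor, was in 0 of the 7 and 1.63% of all, and GGGCGG in 5 of the 7 and 35.7% of all. A match or its absence describes letters in this window only, and the windows do not all lie at the annotated gene start. The Jund window, chr8:70697489-70697788, ends upstream of the gene start at 70698949. For Junb the RefSeq start lies upstream of the annotated gene start at 84978718 on the minus strand. Its TATAAA at the RefSeq start is therefore also upstream of the annotated start. The Fosl2 window, chr5:32136222-32136521, lies inside the annotated gene, which starts at 32135801. Variants other than those listed, such as TGACATCA in the Jun window, were not counted.

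Fos, the founding member, stood on chromosome 12 at 85473890 to 85477273 (plus strand, GRCm38, as all gene positions here, from GENCODE vM21). It had 70.9 and 65.4 CPM in iB-Tregs (C), 57.9 and 60.7 in (B), 53.4 and 54.7 in (A), 637 and 471 in Ischemia-Tregs and 2.79 and 9.10 in SP-Tregs. The 2 Ischemia-Treg libraries were above all others, and the 2 SP-Treg libraries below all others and more than 3 times apart from each other. Fosb, a close paralog (chromosome 7, 19302696 to 19310051, minus strand), had 42.8 and 40.6 CPM in iB-Tregs (C), 39.7 and 36.6 in (B), 26.3 and 24.8 in (A), 393 and 426 in Ischemia-Tregs and 5.59 and 6.83 in SP-Tregs. No 2 groups overlapped for Fos or for Fosb, and the order Ischemia, (C), (B), (A), SP was the same in both.

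Fosl2, which encodes FRA2 (chromosome 5, 32135801 to 32157842, plus strand), had 462 and 433 CPM in iB-Tregs (C), 368 and 377 in (B), 194 and 196 in (A), 1065 and 969 in Ischemia-Tregs and 6.78 and 6.54 in SP-Tregs. It followed the order of Fos and Fosb with no overlap of groups. Fosl1, which encodes FRA1 (chromosome 19, 5447547 to 5455946, plus strand), had few counts. There were 30 and 28 counts in iB-Tregs (C), 28 and 16 in (B), 16 and 21 in (A), 1 and 1 in Ischemia-Tregs and no count in both SP-Treg libraries, which is below a floor of 3 counts or 0.352 CPM over that group. Its iB-Treg levels lay between 0.852 and 1.69 CPM, so Fosl1 passed the filter on low counts only through the iB-Treg libraries, and (B) and (A) overlapped. Fosl1 also shares 2767 bases with Ccdc85b on the other strand, and since the strand setting of the counting is not given in the sources used here its counts are uncertain.

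Jun, the partner that gives AP-1 its strongest transactivating dimers (chromosome 4, 95049034 to 95052222, minus strand), had 252 and 252 CPM in iB-Tregs (C), 266 and 258 in (B), 324 and 298 in (A), 502 and 501 in Ischemia-Tregs and 21.3 and 22.2 in SP-Tregs. Here the iB-Treg groups stood in the order (A), (B), (C), the reverse of Fos, Fosb and Fosl2, again with no overlap. Junb, a partner of BATF in effector and regulatory T cells (chromosome 8, 84974484 to 84978718, minus strand), had 663 and 686 CPM in iB-Tregs (C), 596 and 564 in (B), 566 and 502 in (A), 3991 and 3843 in Ischemia-Tregs and 128 and 150 in SP-Tregs. The Ischemia-Treg libraries again stood far above the rest, and the groups (B) and (A) overlapped.

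Jund (chromosome 8, 70698949 to 70700616, plus strand), the member most often found in resting cells, had 418 and 407 CPM in iB-Tregs (C), 427 and 426 in (B), 574 and 506 in (A), 198 and 223 in Ischemia-Tregs and 50.5 and 61.7 in SP-Tregs. It was the one JUN gene with lower levels in Ischemia-Tregs than in each iB-Treg group. Atf3 (chromosome 1, 191170296 to 191218039, minus strand) had 52.3 and 51.9 CPM in iB-Tregs (C), 56.3 and 60.7 in (B), 40.0 and 37.9 in (A), 38.4 and 25.5 in Ischemia-Tregs and no count in either SP-Treg library. The groups (A) and Ischemia-Treg overlapped. Of 8411 genes at 10 CPM or more in every iB-Treg library, 56 (0.666%) had no count in both Ischemia-Treg libraries and 101 (1.20%), Atf3 among them, had none in both SP-Treg libraries. Jun, Jund, Junb and Atf3 overlap genes on the other strand by 108 to 919 bases, among them Prdx2 beside Junb, so a part of their counts is uncertain too.

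**Figure D1:**
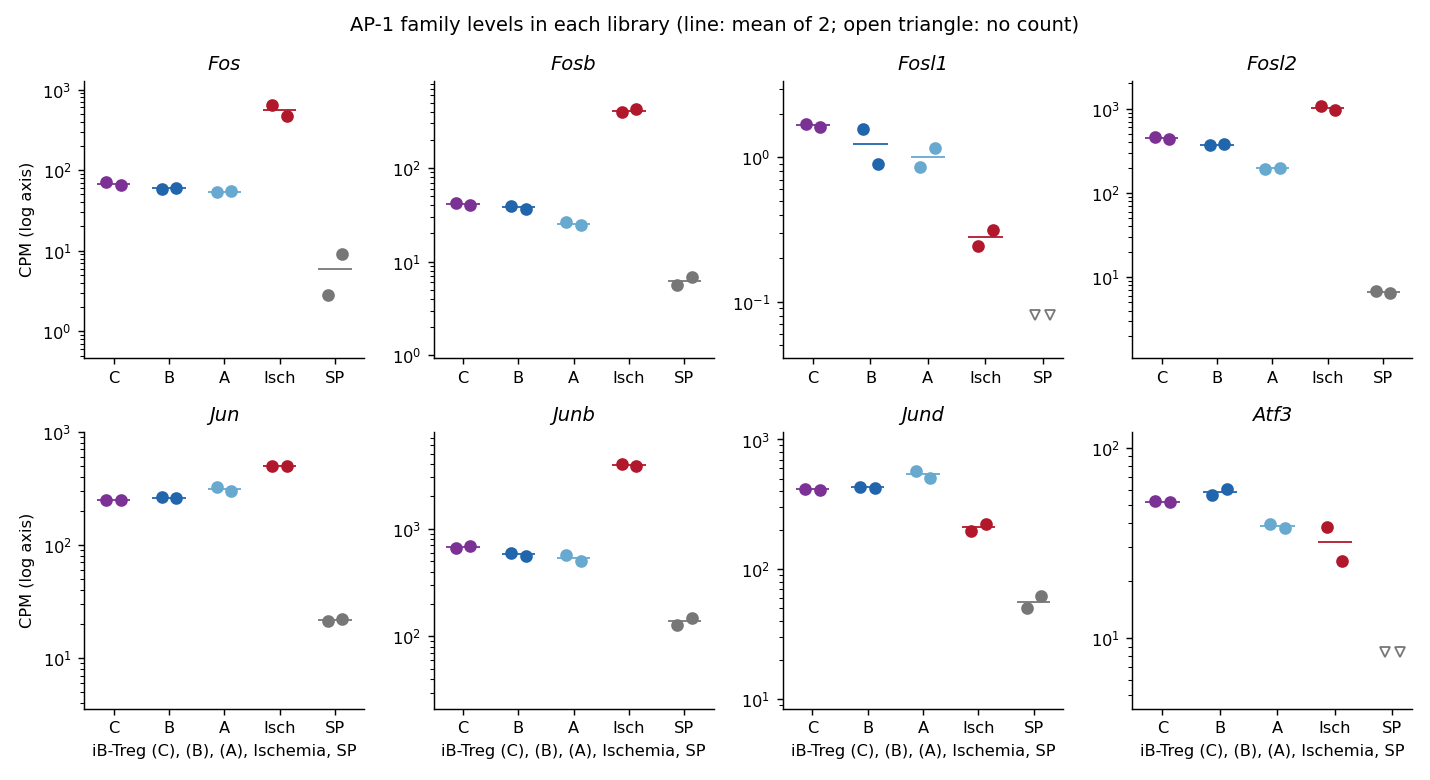
CPM of each AP-1 family gene (log axis) in the 10 libraries, in the order iB-Treg (C), (B), (A), Ischemia-Treg and SP-Treg, with a line at the mean of 2 libraries and open triangles at the bottom for libraries with no count. Fos, Fosb, Fosl2, Jun and Junb were highest in Ischemia-Tregs (Junb 3991 and 3843 CPM), while Jund was highest in iB-Tregs (A), at 574 and 506 CPM.

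To compare levels between genes, counts were also expressed per kilobase of exon (RPKM). Summed over the 8 genes, the family reached 806 and 806 RPKM in iB-Tregs (C), 765 and 748 in (B), 824 and 740 in (A), 2944 and 2796 in Ischemia-Tregs and 110 and 132 in SP-Tregs. The iB-Treg sums stood between the tissue groups, with (C) above (B) and the range of (A) overlapping both. The make-up of the sum differed. Junb took 45.5 and 47.1% of it in iB-Tregs (C), 43.1 and 41.7% in (B), 37.9 and 37.5% in (A), 74.9 and 76.0% in Ischemia-Tregs and 64.0 and 62.6% in SP-Tregs. Jund took 31.1 and 30.3% in (C), 33.5 and 34.2% in (B), 41.8 and 41.0% in (A), but 4.04 and 4.79% in Ischemia-Tregs, against 27.4 and 27.9% in SP-Tregs. Jund was thus a large share of the family RNA in each group but the Ischemia-Tregs.

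The FOS genes together were a minor part of the family per length. The ratio of summed RPKM of the 4 FOS genes to that of the 3 JUN genes was 0.123 and 0.114 in iB-Tregs (C), 0.104 and 0.110 in (B), 0.0625 and 0.0713 in (A), 0.179 and 0.153 in Ischemia-Tregs and 0.0259 and 0.0445 in SP-Tregs. No 2 groups overlapped in this ratio. Fosl2 took 5.92 and 5.56% of the family sum in (C), 4.96 and 5.21% in (B), 2.43 and 2.74% in (A), 3.74 and 3.58% in Ischemia-Tregs and 0.635 and 0.510% in SP-Tregs, so the Fosl2 share was larger in (C) and (B) than in Ischemia-Tregs. Fos itself took 2.75 to 3.74% in the 6 iB-Treg libraries and 9.20 and 7.17% in Ischemia-Tregs.

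**Figure D2:**
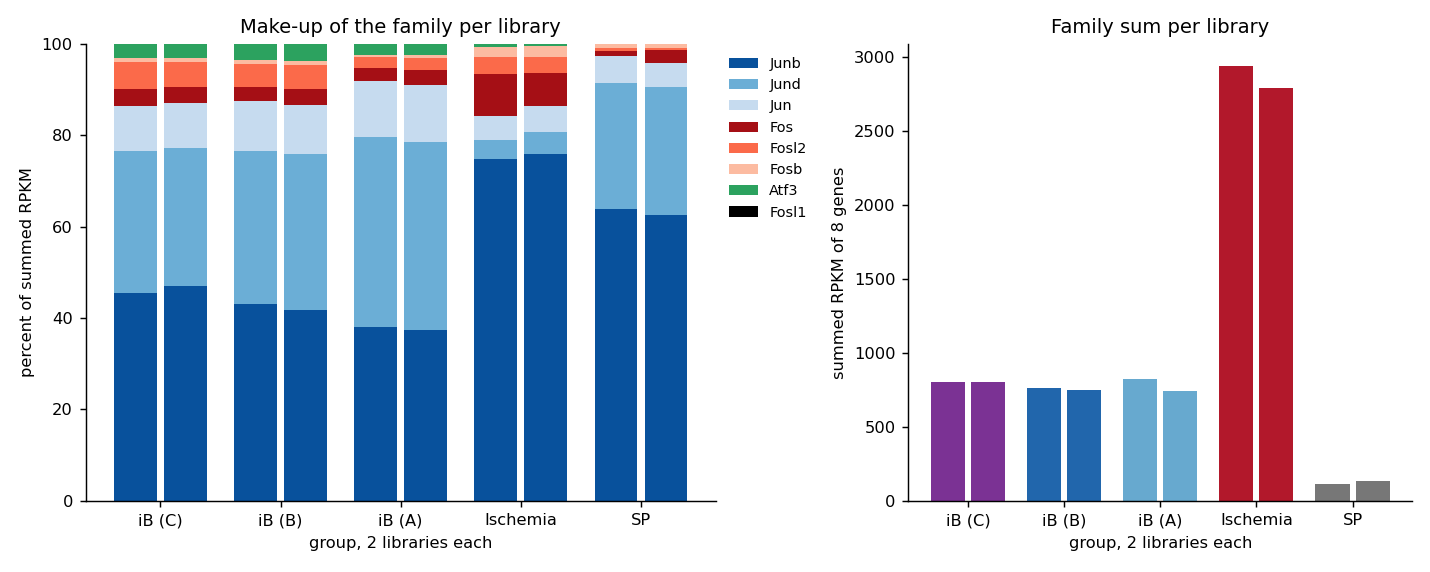
Left, percent of the summed RPKM of the 8 genes taken by each gene in each library, and right, that sum in RPKM, with 2 bars per group in the order iB-Treg (C), (B), (A), Ischemia-Treg and SP-Treg. The Ischemia-Treg sums, 2944 and 2796 RPKM, exceed all others, and Jund makes up 4.04 and 4.79% of them.

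Brain Tregs after stroke were set against splenic Tregs to ask how the tissue population differed. All 8 genes were higher in Ischemia-Tregs, counting Fosl1 with 2 counts against 0, for which no fold is given. Groups were apart and at least 2-fold higher for 10.4% of the 13000 genes that passed a filter on low counts, which all 8 family genes passed. The log2 fold change of Ischemia-Treg over SP-Treg was 7.25 (SE 0.12) for Fosl2, 6.68 (SE 0.23) for Fos, 6.06 (SE 0.14) for Fosb, 4.83 (SE 0.090) for Junb, 4.53 (SE 0.095) for Jun and 1.92 (SE 0.11) for Jund. For Fosl2 this is a 152-fold and for Jund a 3.79-fold difference. The SE, here and below, is the size of the log2 fold change divided by the square root of the edgeR F statistic. It rests on a spread shared over all 10 libraries and is not the spread of the 2 compared groups. Atf3 was at least 90.8-fold higher. The median over the 7 genes with a fold, Atf3 at its bound, was 6.06 on the log2 scale, against 0.00 over all genes. Without the library named SP-9 in the table the Fos value was 5.93 and the Atf3 bound 37.4-fold, and without SP-10 they were 7.63 and 53.4-fold.

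The gene lists set beside the family from here on were also chosen with earlier results of these libraries known. Their calls, p-values and comparison with the shares of all genes are therefore given as a description and not as independent evidence. The MAP kinase inhibitors, a list of 14 genes that AP-1 activating signals commonly induce as feedback, mostly rose with the family. By edgeR's quasi-likelihood test (Benjamini-Hochberg adjusted p under 0.05 over all genes), 10 of 14 rose and 2 fell in Ischemia-Tregs, against 20.4% and 18.3% of all genes. Dusp1, a nuclear phosphatase of MAP kinases, averaged 1603 ± 149 CPM in Ischemia-Tregs and 46.6 ± 6.4 CPM in SP-Tregs (SD, n = 2 libraries each), a log2 fold change of 5.12 with an adjusted p by edgeR of 2.7e-16. Dusp5 (4.24), Dusp4 (3.69) and Dusp10 (3.47) were the next on the log2 scale. The list median was 2.24 with genes of no count at their bound. Of 17 other immediate early genes 13 rose and 1 fell. Nr4a2, an orphan nuclear receptor, averaged 181 ± 1.2 CPM and 2.34 ± 0.084 CPM, and the log2 fold change was 6.27. It was followed by Ppp1r15a (4.94), Klf4 (4.50) and Nr4a1 (4.10). The list median was 2.03 over 16 genes with a fold.

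The dimer partners and related bZIP genes were split, with 11 of 20 tested higher, 4 lower and 5 not past the threshold. Beside this and the next lists stand 20.4% of all genes higher and 18.3% lower. The small MAF protein gene Maff rose by 5.73 on the log2 scale, Cebpb by 4.30 and Nfil3 by 3.92. Bach2, a repressor that competes with AP-1 at its sites in T cells, fell by 1.45, with 64.3 ± 2.9 CPM in Ischemia-Tregs and 176 ± 7.3 CPM in SP-Tregs. Of 9 partners at composite sites 5 rose, among them Ets2 by 2.22, Irf8 by 1.09, Irf4 by 0.91 and Runx3 by 0.45, and 0 fell by edgeR, by DESeq2 or at an unadjusted p under 0.05. The 18 tested MAP kinases and kinases above them gave 6 higher and 4 lower, with Map2k3 at 1.57 and Mapk11 at -1.01. The 9 transcription factors that bind AP-1 gene promoters gave 2 higher and 3 lower, with Elk3 at 0.81 and Creb1 at -0.45 as the 2 most changed. Nothing particular to the kinases or to these factors is read from their counts. Of 18 tested AP-1 target genes known from other cells 11 rose and 2 fell, among them Mmp9 (2.72), the early activation marker Cd69 (2.26) and Fasl (1.78). A fit of the Ischemia-Treg and SP-Treg libraries alone called 2985 genes in place of 5030, and in it 7 bZIP genes rose and 2 fell, and 7 target genes rose and 1 fell.

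iB-Tregs (A) were set against SP-Tregs to ask what culture on glia with T cell receptor stimulation went with. All 8 family genes were higher in iB-Tregs (A), at least 2-fold and with groups apart, as were 27.2% of all genes. This count includes Fosl1, which passed the filter on low counts only through the iB-Treg libraries. Its bound fell under 2-fold when either SP-Treg library was left out. The log2 fold change was 4.87 (SE 0.12) for Fosl2, 3.84 (SE 0.094) for Jun, 3.31 (SE 0.27) for Fos, 3.28 (SE 0.10) for Jund, 2.06 (SE 0.18) for Fosb and 1.95 (SE 0.084) for Junb. Atf3 was at least 110.7-fold and Fosl1 at least 2.86-fold higher, and without SP-9 these bounds were 45.9-fold and 1.19-fold, and without SP-10 65.5-fold and 1.70-fold. For Fos the value was 2.58 without SP-9 and 4.28 without SP-10. The median with bounds was 3.30, against 0.14 over all genes. Ischemia-Tregs and iB-Tregs share the SP-Treg libraries, and side by side Jund stood at 3.28 in iB-Tregs (A) and 1.92 in Ischemia-Tregs, and Junb at 1.95 in iB-Tregs (A) and 4.83 in Ischemia-Tregs. In iB-Tregs (B) the values were 5.80 for Fosl2, 3.45 for Fos, 2.64 for Fosb, 3.59 for Jun, 2.07 for Junb and 2.94 for Jund, and Atf3 was at least 166-fold higher. There Fos stood at 2.71 and the Atf3 bound at 69.1-fold without SP-9, and at 4.41 and 98.5-fold without SP-10.

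The GC content of the exons moved with this comparison. Over 10 bins of genes by GC content, the median log2 fold change of iB-Treg (A) over SP-Treg ran from -0.33 in the lowest bin to 0.78 in the highest, and that of Ischemia-Treg over SP-Treg from -0.04 to 0.08. The family had 51.9 to 67.2% GC, with Fos, Fosl2 and Atf3 in bin 7, Fosb and Jun in bin 9 and Fosl1, Junb and Jund in bin 10. The part of GC content in the family values was not tested. Microglia and macrophage markers also differed, 5050 to 5266 CPM in iB-Tregs (A) and 58.7 to 68.8 CPM in SP-Tregs.

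**Figure D3:**
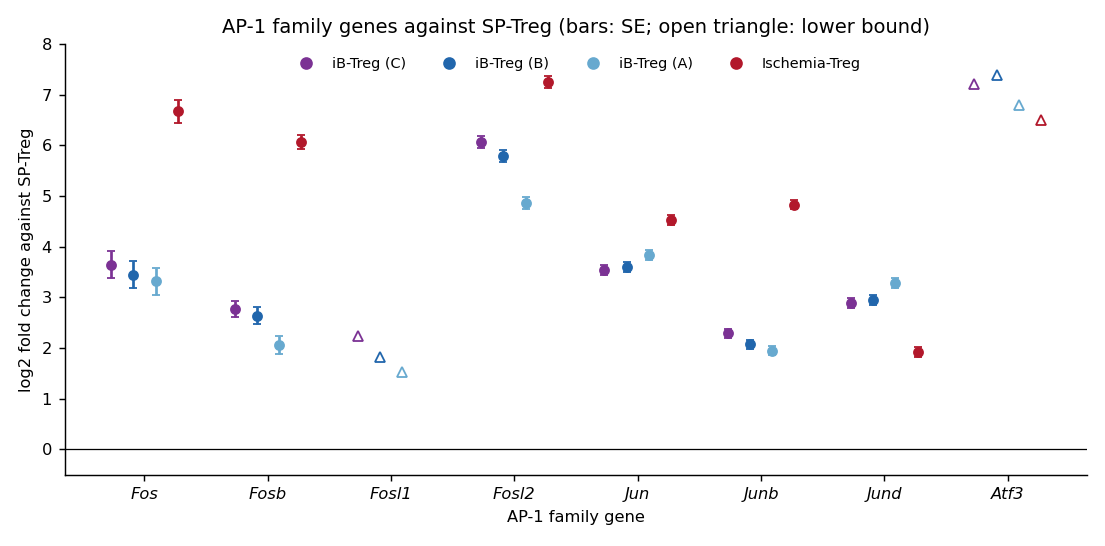
Log2 fold change against SP-Treg of each AP-1 family gene for iB-Treg (C), (B), (A) and Ischemia-Treg, with bars of 1 SE and open triangles for lower bounds where SP-Tregs had no count. Fosl2, Fos, Fosb, Jun and Junb lie highest in Ischemia-Tregs (7.25 for Fosl2) and Jund lowest in them (1.92).

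Of the 20 bZIP genes 14 rose and 5 fell in iB-Tregs (A), against 40.0% and 32.7% of all genes. Atf5 averaged 92.2 ± 6.5 CPM in iB-Tregs (A) and 1.05 ± 0.92 CPM in SP-Tregs, which is 6.60 on the log2 scale, and Maff (5.27), Nfil3 (3.56) and Cebpb (3.10) followed. Of 17 other immediate early genes 13 rose and 2 fell, and of 14 MAP kinase inhibitors 9 rose and 2 fell. Egr2, a target of NFAT in T cells, passed the test with 1026 counts in iB-Tregs (A) and 1 count in SP-Tregs, too few in SP-Tregs for a fold. Nr4a2 rose by 3.47, Gadd45b by 2.97 and Ppp1r15a by 2.58. Dusp4 rose by 2.42 and Spred2 by 1.28, while Dusp10 was at -2.204 and Dusp7 at -1.865.

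Of the composite site partners 3 of 9 were higher and 5 lower, at a median of -1.20. Beside these and the next lists stand 40.0% of all genes higher and 32.7% lower. Ets1 averaged 543 ± 26 CPM in iB-Tregs (A) and 2104 ± 104 CPM in SP-Tregs, which is -1.95 on the log2 scale, and Runx1 was at -1.80, while Irf8 rose by 1.65 and Ets2 by 1.44. Of 9 promoter-binding factors 6 fell and 1 rose. Elk4 fell by 2.52 and Creb1 by 1.53, Atf2 fell by 0.56, and Elk3 rose by 0.72. The MAP kinases and kinases above them gave 8 higher and 7 lower of 18, near the shares of all genes, and nothing particular to this list is read from it. Map3k1, a kinase above JNK, fell by 2.36 and Map2k6 by 1.58, while Mapk11 rose by 1.22 and Map2k7 by 1.12. Of 18 AP-1 target genes 13 rose and 2 fell. Mmp9 averaged 548 ± 3.8 CPM and 4.09 ± 3.0 CPM, and Ccnd1 (cyclin D1) was at least 204-fold and Plau at least 32.3-fold higher, with no count in SP-Tregs. Mmp9 and Plau are also expressed by macrophages and other myeloid cells, whose markers were higher in the same libraries. The part of such cells in the values of all list genes, Ccnd1 and Egr2 among them, was not tested.

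iB-Tregs (B) were set against iB-Tregs (A) to ask what IL-33 and serotonin went with. Fosl2, Fosb and Atf3 were higher in (B), at log2 fold changes of 0.93 (SE 0.066), 0.58 (SE 0.091) and 0.59 (SE 0.11), and for Fosl2 this is a 1.91-fold difference. Jund and Jun were lower, at -0.34 (SE 0.077) and -0.25 (SE 0.063). Fos stood at 0.13 (SE 0.14), and Junb at 0.12 (SE 0.073) and Fosl1 at 0.30 (SE 0.47) with overlapping groups. Without 1 library of (B), iB-Treg (B) replicate 1, Fosl1 stood at -0.15. In all, 4 of the 8 genes were apart and higher and 2 apart and lower, while 30.4% of all genes were apart and higher and 33.5% apart and lower. The family median was 0.21 and that of all genes -0.01. In the same libraries the microglia and macrophage markers summed to 8700 to 8735 CPM in (B) and 5050 to 5266 CPM in (A). Members of this list differed in direction. Lyz2 averaged 4524 CPM in (B) and 2946 in (A), and Csf1r 521 and 257 CPM. Cx3cr1 was lower in (B), at 54.2 and 153.5 CPM, as was Tmem119, at 11.2 and 13.3 CPM. The part of such cells in the family values was not tested.

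Among partner genes 9 of 20 rose and 2 fell in (B), against 9.36% and 7.14% of all genes. Creb5 rose by 1.56 and Bach1 by 0.75 on the log2 scale. Maf, the c-MAF gene that many tissue Tregs express, averaged 152 ± 4.1 CPM in (B) and 68.9 ± 1.5 CPM in (A), a log2 fold change of 1.14 (edgeR adjusted p 4.7e-09). Batf, a factor of tissue Tregs that pairs with JUN proteins, averaged 54.7 ± 0.22 CPM and 34.1 ± 2.6 CPM, a change of 0.68 with an edgeR adjusted p of 3.7e-05. Of 18 AP-1 target genes 11 rose and 1 fell, and the 1 fall was not called in any fit that left out a library. Timp1, an inhibitor of metalloproteinases, averaged 124 ± 0.44 CPM in (B) and 0.763 ± 0.18 CPM in (A), and Il5, a type 2 cytokine gene, 31.4 ± 1.2 and 0.187 ± 0.19 CPM. Mmp9 rose by 1.08 and Mt1 by 0.98. Timp1 and Mmp9 are also expressed by macrophages, whose markers summed to 8700 to 8735 CPM in (B) and 5050 to 5266 CPM in (A). The part of such cells in the values of all list genes, Maf and Egr2 among them, was not tested. Of 17 other immediate early genes 5 rose and 4 fell, with Ier3 at 2.32, Egr2 at 2.06, Klf2 at -0.56 and Nr4a3 at -0.52.

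The calls in the other lists stand beside the same 9.36% of all genes higher and 7.14% lower, and nothing particular to these lists is read from them. Of 14 MAP kinase inhibitors 2 rose, Dusp16 by 0.71 and Dusp1 by 0.43, and 1 fell, Spred2 by 0.39. Of the 9 composite site partners Ets2 rose by 0.86 and Irf4 fell by 0.43. Of 18 MAP kinases and kinases above them 1 fell, Mapk11 by 0.38, and 0 rose by edgeR, by DESeq2 or at an unadjusted p under 0.05. Of the 9 promoter-binding factors 0 passed the threshold by edgeR and 0 by DESeq2, and 1 had an unadjusted p under 0.05. A fit of the 4 libraries of (B) and (A) alone called 4170 genes in place of 2145. In it 8 of the other immediate early genes rose and 5 fell, and 4 of the MAP kinase inhibitors rose and 1 fell. Of the MAP kinases and kinases above them 4 fell, and all lists together gave 39 entries higher and 17 lower. The shares of all genes higher and lower in that fit are not given, so nothing particular to the lists is read from it.

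iB-Tregs (C) were set against iB-Tregs (B) to ask what the 2 chemokines went with. Fosl2 was higher in (C) by 0.27 (SE 0.064) and Junb by 0.22 (SE 0.073) on the log2 scale. The other 6 genes stood between -0.17 for Atf3 and 0.42 for Fosl1. The groups were apart for 8 of 8 genes, 5 higher and 3 lower, while they were apart for 46.2% of all genes in one or the other direction. Fosl1 was apart through scaling only. The lower library of (C) and the higher library of (B) both held 28 counts of it, at 1.64 and 1.57 CPM. edgeR called 6 genes higher (0.0462%) and 15 lower (0.115%) of 13000, and 826 had an unadjusted p under 0.05. In the 7 lists together, with 105 entries as Creb1 and Atf2 stand in 2 of them, edgeR called 0 and DESeq2 0, and 12 had an unadjusted p under 0.05. Over all genes DESeq2 called 74. A fit of the 4 libraries alone called 849 genes and 15 of the list entries, 9 higher and 6 lower. Of the higher entries 4 were MAP kinase inhibitors.

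**Figure D4:**
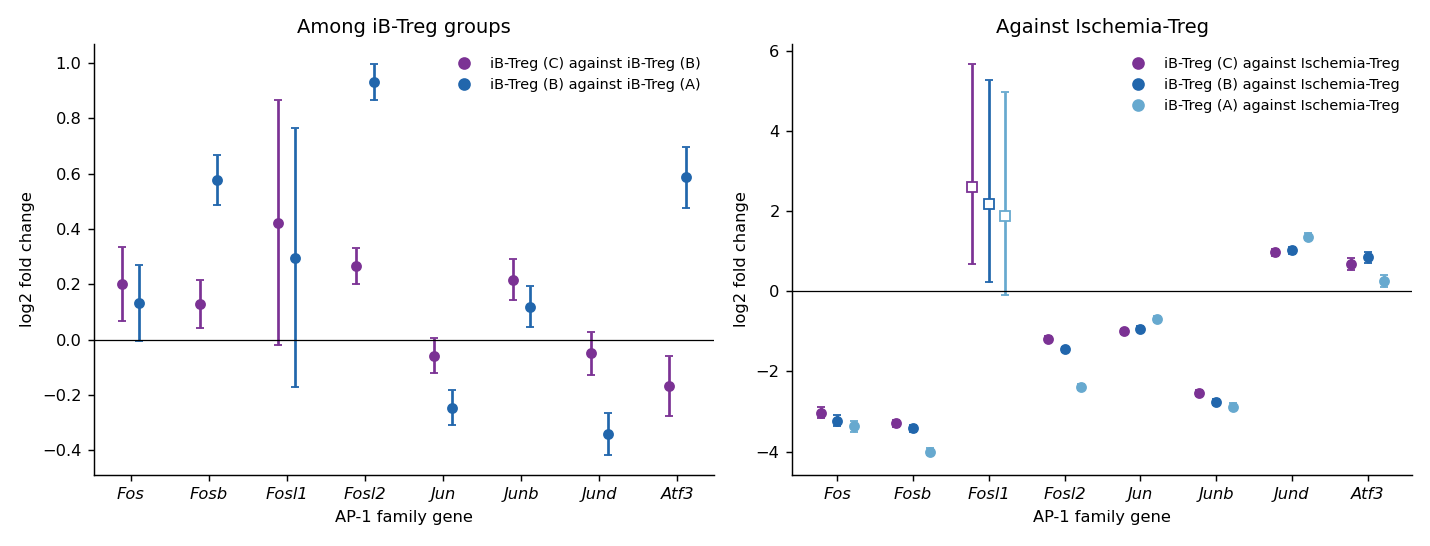
Left, log2 fold change of each family gene for iB-Treg (C) against (B) and for (B) against (A); right, the same for iB-Treg (C), (B) and (A) against Ischemia-Treg. Bars are 1 SE, and open squares for Fosl1 are ratios of summed counts with a 95% counting interval. Fosl2 shows 0.93 in (B) against (A), and Fosb -3.42 in (B) against Ischemia-Treg.

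iB-Tregs (B) were set against Ischemia-Tregs to ask how far cultured cells differed from brain Tregs. Only the brain was described as digested with collagenase and DNase, so culture and digestion cannot be told apart in this comparison, also for the lists below. In iB-Tregs (B) 5 of 8 genes were lower, Fosb at -3.42 (SE 0.087), Fos at -3.23 (SE 0.14), Junb at -2.76 (SE 0.078), Fosl2 at -1.45 (SE 0.066) and Jun at -0.94 (SE 0.065) on the log2 scale. Jund was higher at 1.02 (SE 0.086) and Atf3 at 0.85 (SE 0.14). Fosl1 had 44 counts in (B) and 2 in Ischemia-Tregs, a ratio of 4.52 per library size with a 95% exact counting interval of 1.18 to 38.5. Groups were apart and at least 2-fold lower for 4 of 8 genes, against 16.8% of all genes, and at least 2-fold higher for 2 of 8, Jund and Fosl1, against 26.2%. These counts move with the setting, since over the alternatives Jund stood at 0.90 to 1.11 and Jun at -1.05 to -0.90 on the log2 scale, with Jund under 2-fold and Jun past it when scaled from protein-coding genes (0.94 and -1.02), and Fosl1 passed the filter only through the iB-Treg libraries. The family median was -1.19 and that of all genes 0.14. In iB-Tregs (A) against Ischemia-Tregs Fosl2 stood at -2.38 and Jund at 1.36, and in (C) at -1.18 and 0.97. The GC gradient of (B) against Ischemia-Tregs ran from -0.19 in the lowest bin to 0.59 in the highest, and its part in the family values was not tested.

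Other immediate early genes were lower in iB-Tregs (B) than in Ischemia-Tregs in 13 of 17 cases and higher in 3, against 31.0% lower and 38.6% higher of all genes. Btg2, an antiproliferative gene, averaged 41.1 ± 0.027 CPM in (B) and 574 ± 22 CPM in Ischemia-Tregs, a log2 fold change of -3.80, and Nr4a3 was at -3.38. Egr2 went the other way, with 116 ± 6.6 CPM in (B) and no count in Ischemia-Tregs, at least 281-fold higher, and Ier3 rose by 5.20. MAP kinase inhibitors were lower in 9 of 14 cases and higher in 2, with Dusp10 at -5.71, Dusp1 at -3.43, Dusp5 at -3.32 and Spry1 at -1.84. Dusp10 averaged 7.83 ± 0.35 CPM in (B) and 409 ± 46 CPM in Ischemia-Tregs. Composite site partners were lower in 6 of 9 cases and higher in 1, with Runx1 at -2.21, Ets1 at -2.07, Nfatc2 at -1.58 and Nfatc1 at -1.39.

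Among bZIP genes 12 of 20 were higher in (B) and 5 lower. Beside this and the next lists stand 38.6% of all genes higher and 31.0% lower. Atf5 was at 4.92, Ddit3 at 3.09 and Mafg at 1.68, and Creb5 was at least 35.1-fold higher with no count in Ischemia-Tregs. Of 18 MAP kinases and kinases above them 4 were higher and 10 lower, Map3k1 at -2.20 and Map2k6 at -1.46, with Mapk11 at 1.84 and Map2k7 at 0.96. Of 9 promoter-binding factors 4 were lower and 1 higher, a rise that DESeq2 did not call, Elk4 at -2.14, Creb1 at -1.13, Srf at -0.57 and Mef2d at -0.32. AP-1 target genes stood mostly higher in (B), in 13 of 18 cases with 5 lower, at a median of 3.14. Timp1 was at least 300.5-fold higher, Hmox1 had 134 ± 0.65 and 0.472 ± 0.67 CPM, and Mmp9 had 1160 ± 24 and 29.5 ± 1.9 CPM. Hmox1, Mmp9 and Timp1 are also expressed by macrophages, and the macrophage markers summed to 8700 to 8735 CPM in (B) and 137 to 167 CPM in Ischemia-Tregs. The part of such cells in the values of all list genes was not tested.

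**Figure D5:**
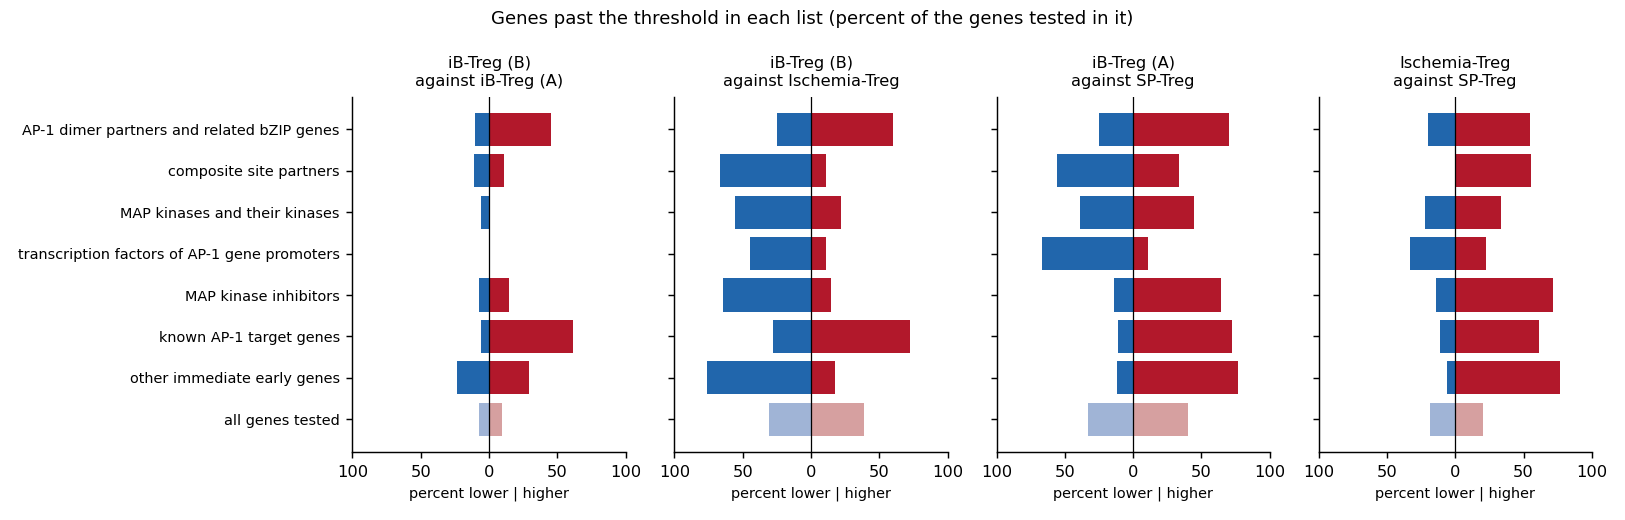
Percent of the tested genes of each list that were past the edgeR threshold, higher to the right (red) and lower to the left (blue), in 4 comparisons, with all genes tested in the bottom row. In Ischemia-Tregs against SP-Tregs 13 of 17 other immediate early genes rose, and in iB-Tregs (B) against Ischemia-Tregs 13 of 17 were lower. The lists were chosen with earlier results of these libraries known.

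Across the 10 libraries the family fell into patterns that differed mainly in Jund and Fosl1, and in part in Atf3. Pearson's r of log2 CPM was 0.996 between Fosb and Junb, 0.979 between Fos and Junb, 0.974 between Fosl2 and Jun and 0.969 between Fos and Fosb. It was 0.938 between Fosl1 and Jund and between Atf3 and Jund, but 0.366 between Fosb and Jund and 0.234 between Fosb and Fosl1. Atf3 stood at 0.949 with Jun and 0.936 with Fosl2, but at 0.636 with Fosb and 0.668 with Junb. Where a library had no count, as for Atf3 and Fosl1 in SP-Tregs, log2 CPM is set by a small count that edgeR adds. The 10 points come in 5 groups of 2 and share depth and library make-up within tissue and culture, so these are descriptions of group patterns.

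Among 9193 other genes the ones most like each family gene by this r were found in the same way. Fos was most like Fam129a (0.994), Klf4 (0.994) and Ppp1r15a (0.993), and Fosb most like Ccl5 (0.994), Dennd4a (0.994) and Pmaip1 (0.992). Junb was most like Pmaip1 (0.994), Traf4 (0.994) and Dennd4a (0.993), so 2 of its 3 genes were also those of Fosb. Klf4 had mean levels of 23.0 CPM in iB-Tregs (C), 19.4 in (B), 15.2 in (A), 77.1 in Ischemia-Tregs and 3.66 in SP-Tregs. Fosl2 was most like Cebpb (0.996), Chst11 (0.993) and Arpc3 (0.990), and Jun most like Pim1 (0.997), Impa2 (0.992) and Nfkbia (0.990). Jund was most like Anxa2 (0.998), Kif23 (0.997) and Mapkapk2 (0.997), Atf3 most like Got1, Tent5a and Lyn (0.996 each), and Fosl1 most like Ybx3 (0.985), Eps8 (0.985) and Gabarapl1 (0.984). Lyn had 59.1 CPM in (C), 71.9 in (B), 55.7 in (A), 49.4 in Ischemia-Tregs and 8.46 in SP-Tregs. Cebpb and Lyn are also expressed by macrophages.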

How the data were processed

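Tregs from 5 groups were profiled by RNA-seq, with 2 libraries per group. The paper describes stranded libraries of polyadenylated RNA and names no other preparation. Rn7sk, an RNA without a poly(A) tail, took 0.236 to 0.711% of the counts used in tissue libraries. In iB-Treg libraries it took 0.000718 to 0.00111%. Whether all groups were prepared in the same way was not tested. The authors deposited whole-number counts per gene, neither normalized nor pooled. Their paper describes trimming, alignment and counting with Trim Galore, HISAT2 and featureCounts, while the submitters' notes name HISAT2 2.0.1 and HTSeq 0.6.1 on the mm10 build. The strand setting of the counting is not given in the sources used here.

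The counts of the SP-Treg and Ischemia-Treg columns were moved back to their gene IDs by 0 to 19 rows in 6 stretches, and 172 rows at the end of the table carry counts without a gene ID. IDs outside the stretches were not used, so 94.5 to 94.8% of the counts of iB-Treg libraries and 83.0 to 91.9% of those of tissue libraries entered. Correlations at the offset were 0.884 to 0.922 per stretch, and 0.347 or less at other offsets. The SP and Ischemia column names give the group but not which sample they are. Of 184 list genes 6 lay outside the stretches. Symbols and positions came from GENCODE vM21, with 55141 of 55401 IDs matched, and promoters from RefSeq. The 2 libraries of a group differed by more than sampling noise in each group.

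Counts were tested with edgeR 4.0.16 in R 4.3.3 (TMM scaling, filterByExpr, quasi-likelihood F test) in 1 fit of 10 libraries and 13000 genes over 10 comparisons, with a Benjamini-Hochberg adjusted p under 0.05. CPM use the effective library sizes, and RPKM divide them by the exonic length in kilobases from the table. DESeq2 1.42.0 was run as an alternative. Where SP-Tregs or Ischemia-Tregs had no count, the fold is a lower bound from 3 counts summed over the 2 libraries, and intervals and floors cover counting error only. The fits were tested on simulated counts.

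The 8 family genes and all gene lists were chosen with earlier results of these data known. The named genes are the 8 members, of each list up to 4 called genes per main comparison with the largest change and at least 10 CPM in 1 of the groups, and for each member the 3 genes with the highest correlation.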

Additional observations from a re-analysis of the deposited data

How the results depend on the processing

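The main limits are 2 libraries per group, a realigned table and library make-up that differs between tissue and culture. For the family genes 79 values were recomputed under the alternatives, and 78 kept their direction in each. The exception is Fosl1 in iB-Tregs (B) against (A), at -0.15 without iB-Treg (B) replicate 1. Scaling from rows that were not moved placed the median of all genes at -0.04 for iB-Treg (A) against SP-Treg, where the main scaling placed it at 0.14, and the family values moved with it. Of the family values 11 moved by over 1.5 times, those of Fos, Atf3 and Fosl1 against SP-Tregs when an SP-Treg library was left out. Scaling from rows that were not moved also turned the split of calls, with 4434 higher and 4945 lower in place of 5206 and 4257 for iB-Treg (A) against SP-Treg, 2353 and 2683 in place of 2657 and 2373 for Ischemia-Treg against SP-Treg, and 4457 and 4496 in place of 5016 and 4030 for iB-Treg (B) against Ischemia-Treg. It turned it likewise in the other comparisons of iB-Treg with tissue groups.

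Counts of called genes changed most among iB-Treg groups. For (B) against (A) edgeR called 2145 genes, a fit of the compared groups only 4170, a fit of the 6 iB-Treg libraries 4125, the 6 iB-Treg libraries with all IDs 4435, and leaving out single libraries 889 to 1167. For (C) against (A) these counts were 2598, 4451, 4713, 5121 and 1144 to 1380. For (C) against (B) they were 21, 849, 561, 526 and 0 to 3, and 130 genes were called with no filter on low counts and 74 with DESeq2. For Ischemia-Treg against SP-Treg the fit of the compared groups only called 2985 genes in place of 5030. The cause was not tested. The other counts of called genes stayed within 1.5 times.

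The replicate numbers of the iB-Treg groups did not pair the libraries, since differences between replicates correlated at 0.0121, -0.0400 and 0.00876 between groups. With a replicate block in the fit of the 6 iB-Treg libraries 3914, 4569 and 470 genes were called for (B) against (A), (C) against (A) and (C) against (B). The fit of the 6 libraries without a block was chosen after seeing the data. Of the list counts 823 stayed within 1.5 times under the alternatives, 56 were larger and 45 smaller.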
